A study of Mus musculus with 38 samples.

Results

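The CCAAT/enhancer-binding proteins (C/EBPs) were followed through 4 genes, Cebpa, Cebpb, Cebpd and Cebpg, taken by gene symbol from the 54532 genes of the count table of mouse oligodendrocyte precursor cells (OPCs). Cebpb was chosen by its measured levels, because its difference between Bmal1 knockout and control libraries ran in opposite directions at 2 times, lower in the knockout 12 h after lights on and higher at 18 h. Its values at those times are therefore given as a description, with no test. All 4 genes passed the filter on low counts, with at least 164 reads in each of the 38 libraries.

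KO libraries came from NG2:Cre+;Bmal1fl/fl mice, in which Cre driven by NG2 deletes the DNA-binding domain of the clock factor BMAL1 (a loss that the submitters call a hypomorph), and WT libraries from NG2:Cre-;Bmal1fl/fl mice, so that both genotypes carried the floxed Bmal1 alleles and no group had Cre with an intact Bmal1 gene. OPCs were panned from forebrains of P6-P7 mice kept in 12 h of light and 12 h of dark, with plates that withdraw microglia and endothelial cells followed by one that keeps cells bearing PDGFRA, and each library held the poly(A) RNA of 2 pooled mice. Collection was at zeitgeber time (ZT) 0, when lights came on, ZT6, ZT12, when lights went off, and ZT18. The KO groups had 4, 7, 4 and 4 libraries and the WT groups 4, 5, 6 and 4 at ZT0, ZT6, ZT12 and ZT18.

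C/EBPs are basic leucine zipper proteins that bind DNA as dimers with each other or with related factors. C/EBPα is best known for driving the differentiation of myeloid cells, fat cells and hepatocytes, while C/EBPβ and C/EBPδ are induced by cytokines and act on inflammatory and acute phase genes. C/EBPγ lacks a transactivation domain and works as a dimer partner of other C/EBPs and of ATF4. In the brain the family is studied mostly in microglia and astrocytes, where C/EBPβ and C/EBPδ take part in the inflammatory response.

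The libraries held 19.4 to 39 M counts each (median 25.9 M), and levels are given as counts per M library counts (CPM) scaled between libraries by edgeR's TMM factors. Summed CPM of 15 OPC markers was 13800 to 21000, and that of 20 microglia markers was 4100 to 18500, with no marker of either list at 0 in all libraries. The corresponding sums were 0.244 to 15 CPM for 11 neutrophil markers, 41.7 to 145 for 10 endothelial, 815 to 2470 for 10 astrocyte, 972 to 2110 for 10 neuron, 248 to 732 for 10 oligodendrocyte and 1100 to 7810 for 7 red blood cell markers. Some libraries stood apart by how many of their counts fell in ribosomal RNA genes. This ribosomal RNA share was at most 0.142% in 7 libraries (WT ZT12 replicates 4 to 6, KO ZT6 replicate 7 and KO ZT18 replicates 1, 2 and 4), 0.263% in KO ZT18 replicate 3 and 0.409% or more in the other 30. All 4 KO libraries at ZT18 were thus among the 8 lowest, while WT libraries at ZT18 held 0.777% to 0.998%. At ZT18 this difference between libraries and the genotype therefore cannot be told apart. No KO library at ZT0 or ZT12 was among the 8, so within KO the difference cannot be told apart from time at ZT18 either. Among WT libraries, only ZT12 had any of the 8. RNA of Y-linked genes (Ddx3y, Eif2s3y, Kdm5d and Uty) was at 0 in WT ZT12 replicates 1 to 4, as in pools of females. In the KO libraries at ZT12 it was 90.4 to 162 per M counts, so sex was uneven between genotypes there. It was also at 0 in WT ZT0 replicate 1, WT ZT6 replicate 2 and KO ZT0 replicate 1. A fit with this RNA as a covariate is among the alternatives. Arntl, which encodes BMAL1, had 17.7 to 33.2 CPM over all libraries. A count over the whole gene does not check a deletion of part of it.

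The genes lie at different places and differ in structure. Cebpb (ENSMUSG00000056501, chr2:167688915-167690418, plus strand, GRCm38) is a single exon of 1504 bases. Cebpa (ENSMUSG00000034957, chr7:35119293-35121928, plus strand) and Cebpg (ENSMUSG00000056216, chr7:35046422-35056573, minus strand) are neighbours on chromosome 7, with gene lengths of 2636 and 5621 bases in the deposited table, and Cebpd (ENSMUSG00000071637, chr16:15887286-15891031, plus strand) has 3746. The 250 bases before the start of 3 of these genes, from RefSeq on GRCm38.p6, are shown because Cebpa and Cebpb varied together and Cebpg hardly varied. The RefSeq table held windows for 3 of the 4 members and not for Cebpd. For Cebpg the window is counted from the RefSeq start, which lies slightly inside the end of the gene in the deposited table. Capitals mark matches, on either strand, to TGACG (core of a cAMP response element), to CCAAT (the box that gave the family its name), to the TATA box TATAAA and to TTGCG (an arm of a C/EBP site), each written in the direction of the gene.
Cebpa, chr7:35119043-35119292, plus strand: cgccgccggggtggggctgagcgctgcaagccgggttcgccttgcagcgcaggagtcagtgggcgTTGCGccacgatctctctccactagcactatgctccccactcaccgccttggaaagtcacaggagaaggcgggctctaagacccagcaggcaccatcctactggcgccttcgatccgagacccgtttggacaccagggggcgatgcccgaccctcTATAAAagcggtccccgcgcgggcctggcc
Cebpb, chr2:167688665-167688914, plus strand: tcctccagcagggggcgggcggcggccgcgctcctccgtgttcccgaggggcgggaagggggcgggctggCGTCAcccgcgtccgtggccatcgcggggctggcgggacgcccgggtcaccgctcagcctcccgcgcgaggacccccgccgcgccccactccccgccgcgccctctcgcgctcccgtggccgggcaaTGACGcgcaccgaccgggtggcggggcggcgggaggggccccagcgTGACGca
Cebpg, chr7:35056567-35056816, minus strand: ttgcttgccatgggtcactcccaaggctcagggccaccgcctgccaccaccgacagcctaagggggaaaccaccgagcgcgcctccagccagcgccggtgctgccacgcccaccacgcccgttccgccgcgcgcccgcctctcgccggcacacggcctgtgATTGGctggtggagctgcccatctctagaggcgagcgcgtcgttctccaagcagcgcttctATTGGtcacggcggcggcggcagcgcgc

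Counted back from the gene start, the Cebpb window held TGACG at -180 to -176, -53 to -49 and -7 to -3, and 5 GC boxes (GGGCGG, not in capitals), 2 of which overlap each other. The Cebpa window held TATAAA at -30 to -25 and TTGCG at -185 to -181. The Cebpg window held CCAAT at -89 to -85 and -28 to -24. None of the 3 windows held CACGTG, the E-box that BMAL1 binds with CLOCK, or TTCNNNGAA, a STAT site. Of 32851 RefSeq windows of that length, 17.8% held TGACG, 32.7% GGGCGG, 33.8% CCAAT, 12.4% TATAAA, 14.5% TTGCG, 6.02% CACGTG and 7.02% TTCNNNGAA.

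Compared per kilobase of gene length, Cebpa and Cebpb were the abundant members. Cebpa averaged 53.6 and Cebpb 53 counts per kilobase and M counts over the 38 libraries, both above 96.8% of the genes tested, while Cebpg averaged 6.78 and Cebpd 4.8. Cebpa was above Cebpb in 20 of 38 libraries, so these neighbours in the order were not separated. Cebpd was above Cebpg in 4 of 38 libraries. The range over libraries differed more than the level: the highest library exceeded the lowest 19.9-fold for Cebpb, 5.5-fold for Cebpa, 4.77-fold for Cebpd and 1.45-fold for Cebpg. Counting error was small beside this, with a coefficient of variation of at most 7.81% for any member in any library. The pooled SD within groups was 0.54 log2 units for Cebpb, 0.46 for Cebpd, 0.41 for Cebpa and 0.14 for Cebpg.

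**Figure D1:**
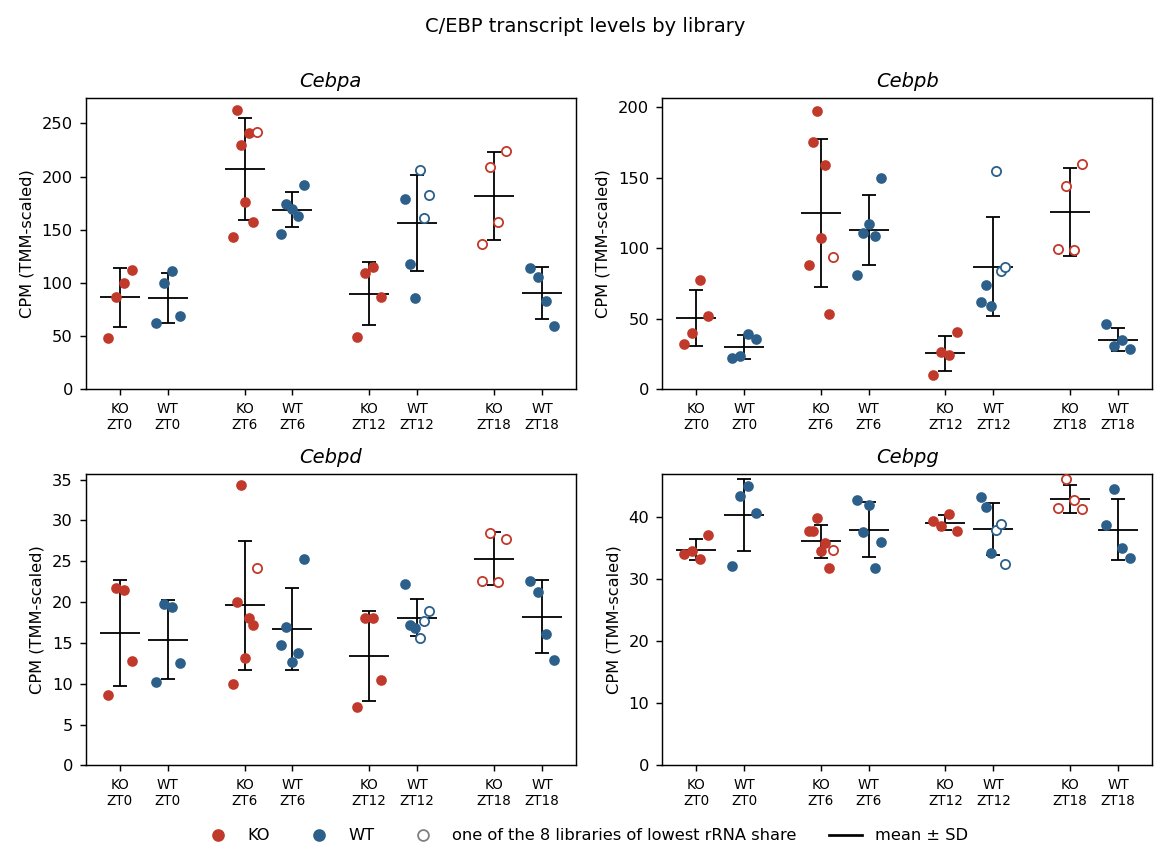
TMM-scaled CPM (vertical axes starting at 0) of the 4 C/EBP genes in each of the 38 libraries, with KO left of WT at each zeitgeber time. Points are libraries, open points the 8 libraries of lowest ribosomal RNA share, and black bars the mean ± SD of each group. Cebpb KO libraries lie at 9.93 to 40.8 CPM at ZT12, all below the WT libraries, and at 98.8 to 160 CPM at ZT18, all above them.

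Cebpb, the cytokine-inducible activator, reversed its order between genotypes between ZT12 and ZT18. At ZT12 it had 9.93, 26.7, 24.7 and 40.8 CPM in the 4 KO libraries, against a lowest, median and highest value of 59.4, 79 and 155 CPM in the 6 WT libraries. At ZT18 it had 99.6, 144, 98.8 and 160 CPM in KO libraries, against 46.6, 30.6, 35.3 and 28.6 CPM in WT libraries. The genotypes did not overlap at either time. These are the values on which the gene was chosen, so nothing is read from the fact that 5.27% of the genes tested were without overlap at ZT12 and 18.5% at ZT18, or that 5% and 2.14% passed the test there. The log2 fold change, KO over WT, was -1.77 (SE 0.33) at ZT12 and 1.83 (SE 0.35) at ZT18, and averaged over the 4 times it was 0.24.

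Cebpb levels were also compared between libraries of low and higher ribosomal RNA share, a difference that was not tested. At ZT12, Cebpb averaged 109 ± 40 CPM in the 3 WT libraries of low share (84.1 to 155 CPM) and 65 ± 7.8 CPM in the other 3 (59.4 to 73.9 CPM; SD, n = 3 each), all above the KO libraries. At KO ZT6 the 1 library of low share had 94 CPM and the other 6 averaged 130 ± 55.8 CPM (SD). Without the 7 libraries of low share the log2 difference, KO over WT, was -1.36 at ZT12, and 1.48 at ZT18 on KO replicate 3 alone. At ZT18 no KO library remained without the 8 lowest, and the average over the other 3 times was then -0.14, the opposite sign of the value over all 4 times.

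The times that played no part in the choice of Cebpb were ZT0 and ZT6. At ZT0 Cebpb had 32.1, 39.8, 77.3 and 52.2 CPM in KO libraries, against 22.1, 23.7, 39.5 and 35.6 CPM in WT libraries. The genotypes overlapped, with 3 of 4 KO libraries above every WT library. The log2 fold change was 0.74 (95% interval 0.05 to 1.43), which did not pass edgeR's quasi-likelihood test (p adjusted over all genes after Benjamini and Hochberg, 0.24). At ZT6 the lowest, median and highest values were 53.2, 107 and 197 CPM in the 7 KO libraries, and the WT libraries had 80.9, 111, 117, 109 and 150 CPM. The difference at ZT6 was 0.14 (95% interval -0.42 to 0.70, adjusted p = 0.981). At a threshold of 0.05, 0.285% of the 22798 genes tested passed between KO and WT at ZT0 and 0.0132% at ZT6, and none of the 4 C/EBP genes did at either time. Over all 4 times 0.0921% passed, with none of the 3 members tested there among them. KO and WT libraries were without overlap for 5.24% of genes at ZT0 and 0.276% at ZT6, and for none of the 4 members.

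Cebpb was higher at ZT6 than at ZT0 in both genotypes. In order of time, the KO group means were 50.4 ± 19.8, 125 ± 52.7, 25.5 ± 12.6 and 126 ± 31.1 CPM, and the WT group means 30.2 ± 8.6, 113 ± 24.5, 86.8 ± 35.1 and 35.3 ± 8.03 CPM (SD). The KO course thus had 2 high times, ZT6 and ZT18, and the WT course had its high values at ZT6 and ZT12. In KO, time cannot be told apart from the low ribosomal RNA share of the libraries at ZT18. The ZT6 over ZT0 fold was 2.48 in KO libraries (log2 1.31, SE 0.31, adjusted p = 0.00673) and 3.76 in WT libraries (log2 1.91, SE 0.34, adjusted p = 0.000378). Of all genes tested, 10.2% passed this comparison in KO and 2.58% in WT libraries. All 5 WT libraries at ZT6 lay above all WT libraries at ZT0, a separation shown by 5.79% of genes, while 6 of 7 KO libraries at ZT6 lay above all KO libraries at ZT0. All WT libraries at ZT12 also lay above those at ZT0 (2.97% of genes were without overlap there), and at ZT18 1 of 4 did (2.98%). Values of Cebpb at ZT12 and ZT18 entered its choice, so both courses are a description at those times. Nothing is read from the shares of genes given for them. Without KO ZT0 replicate 1 the KO difference was no longer past the threshold (adjusted p = 0.06), and every fit that left out 1 library kept the WT difference past it. In bulk RNA, fewer cells of a type and less RNA per cell cannot be told apart, here and in the results that follow.

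Cebpa, the differentiation factor, ran partly like Cebpb, lower in KO at ZT12 and higher at ZT18 by smaller estimates. In KO its ZT6 over ZT0 fold was near that of Cebpb (2.4 and 2.48). At ZT12 Cebpa had 49.4, 109, 115 and 86.7 CPM in KO libraries, against a lowest, median and highest value of 86, 170 and 206 CPM in WT libraries. All KO libraries but 1 lay within the WT range. The log2 fold change was -0.79 (SE 0.24, 95% interval -1.28 to -0.30), just past the threshold by edgeR's quasi-likelihood test (adjusted p = 0.0485), where 5% of all genes passed. At ZT18 it had 137, 209, 157 and 224 CPM in KO libraries, against 114, 106, 82.7 and 59.6 CPM in WT libraries. The genotypes did not overlap, as for 18.5% of genes tested. KO libraries were 2-fold higher (log2 1.00, SE 0.26, 95% interval 0.47 to 1.53, adjusted p = 0.0358), where 2.14% of all genes passed.

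The dependence of the genotype difference on time passed the test for Cebpa (adjusted p = 0.0068), as it did for 9.19% of genes. Without the 7 libraries of low ribosomal RNA share that adjusted p was 0.49, the ZT12 difference was -0.51 (adjusted p = 0.5), and the ZT18 difference, on 1 KO library, was 0.79 (adjusted p = 1). The ZT12 call was kept in 12 of 38 fits that left out 1 library and the ZT18 call in 31 of 38. At ZT12 Cebpa averaged 183 ± 22.2 CPM in the 3 WT libraries of low share and 128 ± 47.5 CPM in the other 3 (SD).

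At ZT0 the genotypes were level for Cebpa, with 47.9, 86.5, 100 and 112 CPM in KO libraries, against 62.3, 100, 111 and 69.1 CPM in WT libraries. At ZT6 the KO libraries had 143, 230 and 263 CPM as lowest, median and highest value, and the WT libraries 146, 174, 170, 163 and 192 CPM. The differences were 0.02 (95% interval -0.51 to 0.54) at ZT0 and 0.29 (95% interval -0.14 to 0.73) at ZT6, with adjusted p-values that missed the threshold.

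Over the 4 times in order, Cebpa averaged 86.6 ± 27.8, 207 ± 47.7, 90 ± 29.7 and 182 ± 41.5 CPM in KO libraries, and 85.6 ± 23.5, 169 ± 16.6, 156 ± 45.1 and 90.8 ± 24.7 CPM in WT libraries (SD). Time of day passed the test in KO libraries (adjusted p = 2e-04, where 21.9% of genes passed) and in WT libraries (adjusted p = 0.00848, where 4.91% passed). The KO test takes in ZT18, where time cannot be told apart from the low ribosomal RNA share of the libraries. ZT6 stood above ZT0 2.4-fold in KO (log2 1.26, SE 0.24, adjusted p = 0.000981) and 1.98-fold in WT libraries (log2 0.98, SE 0.25, adjusted p = 0.0205). No library at ZT6 overlapped with ZT0 in either genotype, as for 5.51% of genes in KO and 5.79% in WT. Without WT ZT0 replicate 1 or 4 the WT difference missed the threshold (adjusted p = 0.11 and 0.0897).

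**Figure D2:**
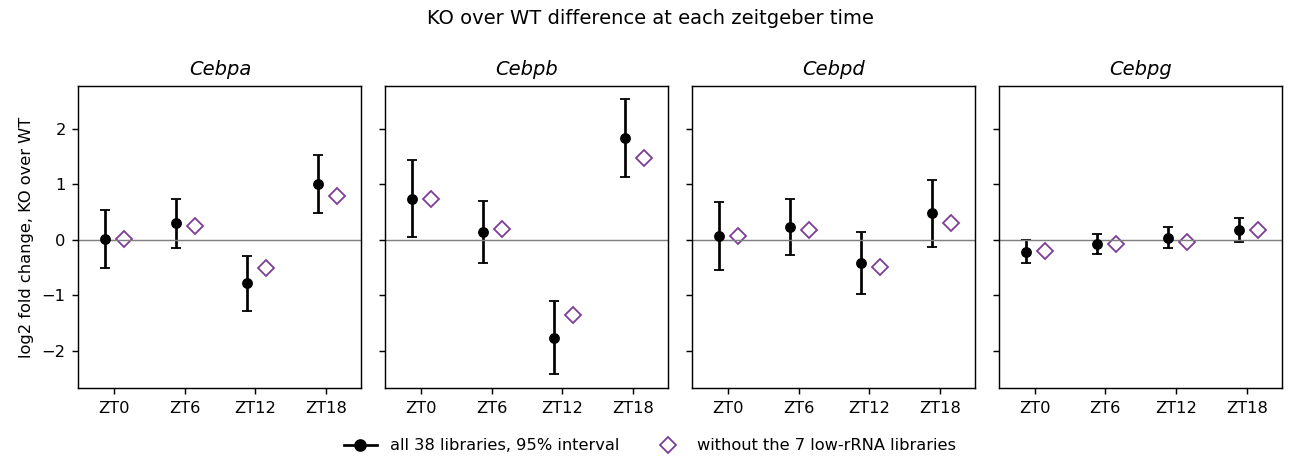
Log2 fold change, KO over WT, of the 4 C/EBP genes at each zeitgeber time. Black points with bars give the estimate and 95% interval from all 38 libraries, and open diamonds the estimate without the 7 libraries of low ribosomal RNA share. Cebpb moves between -1.77 at ZT12 and 1.83 at ZT18, Cebpa between -0.79 and 1.00, and the intervals of Cebpd and Cebpg reach or cross 0 at all 4 times.

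Cebpd, the other cytokine-inducible activator, passed none of the tests between genotypes or times in the edgeR fit to all libraries and 22798 genes. At ZT12 it had 7.18, 18.1, 18.1 and 10.4 CPM in KO libraries, against a lowest, median and highest value of 15.6, 17.4 and 22.2 CPM in WT libraries. At ZT18 it had 22.6, 28.5, 22.4 and 27.7 CPM in KO libraries, against 22.6, 21.2, 16.1 and 12.9 CPM in WT libraries. The genotypes overlapped at both times, while in KO all libraries at ZT18 lay above all those at ZT0, as for 16.4% of genes. That separation cannot be told apart from the low ribosomal RNA share of the KO libraries at ZT18. The log2 differences were -0.42 (95% interval -0.98 to 0.14) at ZT12 and 0.48 (95% interval -0.13 to 1.08) at ZT18, so a change of up to about the size seen for Cebpa lies within the interval. Means in order of time were 16.2 ± 6.53, 19.6 ± 7.92, 13.4 ± 5.54 and 25.3 ± 3.26 CPM in KO libraries, and 15.4 ± 4.83, 16.7 ± 5.04, 18.1 ± 2.29 and 18.2 ± 4.49 CPM in WT libraries (SD). Time of day had an adjusted p of 0.0863 in KO and 0.946 in WT libraries; in KO it passed with no filter on low counts (0.0491), with limma-voom (0.0494) and with the replicate block (0.0246).

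Cebpg, the partner without an activation domain, was the steady member. Its means in order of time were 34.7 ± 1.63, 36 ± 2.67, 39 ± 1.18 and 42.8 ± 2.27 CPM in KO libraries, and 40.2 ± 5.77, 37.9 ± 4.45, 38 ± 4.15 and 37.9 ± 4.86 CPM in WT libraries (SD). Between the genotypes it overlapped at every time, and its largest difference, -0.21 at ZT0, had a 95% interval of -0.43 to 0.00. All 4 KO libraries at ZT18 (41.4, 46.1, 42.6 and 41.2 CPM) lay above all KO libraries at ZT0 (34, 34.5, 33.2 and 37 CPM), a separation shown by 16.4% of genes, and those at ZT12 did too, as 8.68% of genes were without overlap. As for Cebpd, the separation of ZT18 in KO cannot be told apart from ribosomal RNA share. The test of time of day in KO libraries did not pass (adjusted p = 0.0774), nor did that in WT libraries (adjusted p = 0.938). Its SD within groups exceeded that of only 10.8% of genes tested.

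Cebpa and Cebpb varied together from library to library. Across the 38 libraries Pearson's r of log2 CPM was 0.868 between Cebpa and Cebpb and 0.685 after centring within groups, and between Cebpa and Cebpd it was 0.624 and 0.711. Cebpd with Cebpb gave 0.513 and 0.451. Cebpg followed the others less, with 0.168 and 0.338 for Cebpa, 0.0342 and 0.154 for Cebpb and 0.302 and 0.275 for Cebpd. All of these share libraries, scaling and depth, and are a description.

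Reads from genes that overlap a member may have been shared with it. In the GENCODE M21 annotation, where 96.49% of genes have the coordinates of the deposited table, 312 of the 1504 exon bases of Cebpb (20.7%) also lie in exons of Tmem189 on the opposite strand, and 562 of the 3746 exon bases of Cebpd (15%) in exons of Spidr, also opposite. The overlap was 1.93% of exon bases for Cebpa and 1.37% for Cebpg. The sources used here do not state whether counting used the strand, so the Cebpb and Cebpd counts are uncertain by that part. Tmem189 had 19.6 to 40.4 CPM. Its KO over WT log2 difference was -0.41 (adjusted p = 0.0314) at ZT12 and 0.35 (adjusted p = 0.109) at ZT18, and it depended on time (adjusted p = 0.0146). Tmem189 was also higher at ZT6 than at ZT0, by 0.37 in KO (adjusted p = 0.029) and 0.48 in WT (adjusted p = 0.0151). The part of shared reads in the Cebpb results was not tested. Spidr had 14.2 to 24 CPM, with KO over WT differences of 0.02 at ZT12 and 0.03 at ZT18, and passed no test.

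Of the other genes that carry the C/EBP name, Cebpe, a factor of granulocytes, was at 0 counts in 26 of 38 libraries with at most 9 counts, and was not tested. Ddit3, which encodes CHOP, a stress-induced C/EBP that inhibits partners by dimerisation, averaged 17.9 ± 2.63 CPM in KO libraries and 33.6 ± 9.1 CPM in WT libraries at ZT12 (SD). It was lower in KO (log2 -0.91, SE 0.28, adjusted p = 0.0462), but not without the 7 libraries of low ribosomal RNA share (log2 -0.63, adjusted p = 0.447) or with RLE scaling (adjusted p = 0.0569). At ZT6 it was above ZT0 in KO (log2 1.48, adjusted p = 0.000787) and in WT (log2 1.88, adjusted p = 7.56e-05), as Cebpa and Cebpb were. Cebpz, a CCAAT-binding factor outside the leucine zipper family, had 66.1 to 98.7 CPM and passed no test.

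Some dimer partners from the wider leucine zipper class differed between genotypes at ZT12 and ZT18, the times on which Cebpb was chosen. Of 10 such genes tested, 3 were lower in KO at ZT12 and none higher (median log2 -0.51, against -0.01 over all genes), and 3 were higher at ZT18 and none lower (median 0.48, against 0.00 over all genes). Of all genes, 5% passed at ZT12 and 2.14% at ZT18. Atf4, the amino acid response factor that pairs with C/EBPγ, averaged 184 ± 38 CPM in KO and 324 ± 70.1 CPM in WT libraries at ZT12 (log2 -0.82, adjusted p = 0.00303), and 299 ± 41.9 CPM in KO and 195 ± 27.9 CPM in WT libraries at ZT18 (log2 0.62, adjusted p = 0.0469; SD). Atf3, a stress-induced repressor, was lower at ZT12 (log2 -1.12, adjusted p = 0.0314) and higher at ZT18 (log2 1.35, adjusted p = 0.0305). Dbp, a PAR-type factor and clock output, was lower at ZT12 (log2 -1.06, adjusted p = 0.000491), and Nfil3, which binds the same sites as a repressor, was higher at ZT18 (log2 1.10, adjusted p = 0.0488). Without the 7 libraries of low share none of the 10 passed at ZT12, where almost none of all genes tested did. The medians were then -0.16 at ZT12 and 0.46 at ZT18, the latter on 1 KO library. With low ribosomal RNA share as a term in the model, 2 of the 10 were lower at ZT12 (median -0.307). None passed at ZT18 in that fit (median 0.254), where few of all genes tested did.

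Inflammatory and acute phase genes bound by C/EBPs also passed in part at ZT12 and ZT18. Of 17 tested, 3 were lower and none higher in KO at ZT12 (median log2 -0.59, 13 estimates negative and 4 positive), where 5% of all genes passed. At ZT18, where 2.14% of all genes passed, 6 were higher and none lower (median 1.28, all 17 estimates positive). Several of the 17 had few counts, such as Il6, Nos2 and Lcn2, named for that, with means of at most 0.854 CPM in either genotype at ZT18. Tnf, an inflammatory cytokine, averaged 41.3 ± 14.1 CPM in KO and 78.7 ± 23.1 CPM in WT libraries at ZT12 (log2 -0.93, adjusted p = 0.0428), and 82.5 ± 9.12 CPM in KO and 24.8 ± 7.36 CPM in WT libraries at ZT18 (log2 1.73, adjusted p = 0.00619; SD). The chemokine gene Ccl3 differed by -0.97 at ZT12 (adjusted p = 0.0321) and by 1.47 at ZT18 (adjusted p = 0.0113). Socs3, an inhibitor of cytokine signalling, differed by -0.91 at ZT12 (adjusted p = 0.0159) and by 0.96 at ZT18 (adjusted p = 0.0331).

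At ZT18 the prostaglandin synthase gene Ptgs2 averaged 9.7 ± 1.88 CPM in KO and 2.04 ± 0.901 CPM in WT libraries (log2 2.24, adjusted p = 0.0169), and Cxcl2, a neutrophil chemokine, 27.5 ± 4.26 CPM in KO and 9.68 ± 1.96 CPM in WT libraries (log2 1.5, adjusted p = 0.0351). The sixth gene, Il1b, named after its values were seen, averaged 46.6 ± 7.57 CPM in KO and 2.77 ± 1.09 CPM in WT libraries (log2 4.08, adjusted p = 0.0205). Without the 7 libraries of low share none of the 17 passed at ZT12, where almost none of all genes tested did. The median at ZT12 was then 0.02 and turned its sign, and the median at ZT18, on 1 KO library, was 1.02. With low ribosomal RNA share as a term in the model, none of the 17 passed at ZT12 or ZT18 (medians -0.315 and 0.914). Few of all genes tested passed at ZT18 in that fit. Microglia markers, a cell type in which many of these genes are expressed, differed by a median of -0.01 at ZT12 (10 of 20 higher in KO) and 0.32 at ZT18 (20 of 20 higher), with none passing the test at either time. At ZT18 the oligodendrocyte markers were also higher in KO (median 1.22), with 4 of 9 tested passing, where 2.14% of all genes passed. Among them was Mbp, a myelin protein gene (log2 1.25, adjusted p = 0.00866). Red blood cell markers had estimates above 0 in 7 of 7 (median 0.87), none of which passed, as in Slc4a1, an anion exchanger gene, at 8.39 to 9.62 CPM in KO and 4.07 to 5.01 CPM in WT libraries (adjusted p = 0.15). Endothelial markers were above 0 in 10 of 10 (median 0.42) and neuron markers in 8 of 10 (median 0.41), also with none passing. Group means of astrocyte markers went both ways at ZT18, as in Aldoc (140 CPM in KO and 111 in WT) and Gfap (45.9 and 56.2 CPM). At ZT12, where 5% of all genes passed, 2 of 15 OPC markers were lower in KO, among them C1ql1 (log2 -1.03, adjusted p = 0.000774). The part of these markers in the results was not tested.

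**Figure D3:**
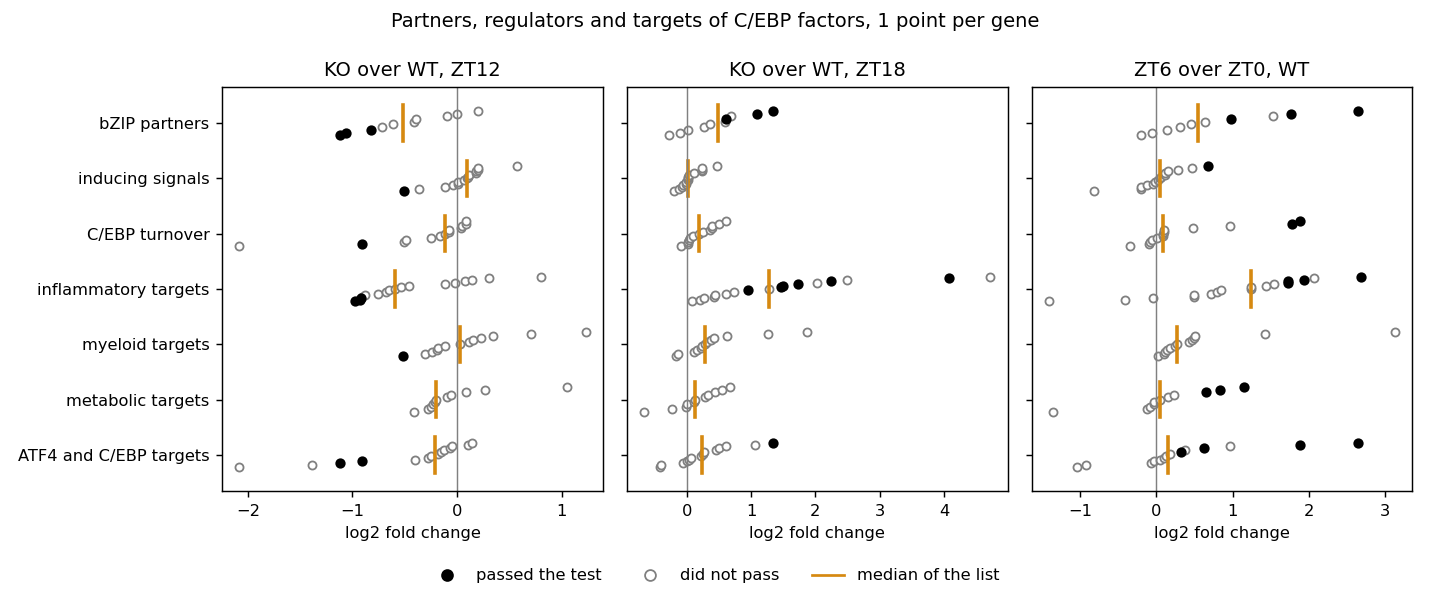
Log2 fold change of each tested gene of 7 lists of C/EBP partners, regulators and targets, KO over WT at ZT12 (left) and ZT18 (middle) and ZT6 over ZT0 in WT libraries (right). Black points passed edgeR's quasi-likelihood test at an adjusted p of 0.05, open points did not, and orange bars are list medians, such as -0.59 at ZT12 and 1.28 at ZT18 for the inflammatory targets.

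Of the other target and regulator groups, 0 to 2 genes each passed between genotypes at ZT12 and 0 or 1 at ZT18. Of 13 tested myeloid targets, 1 was lower in KO at ZT12 (Csf2ra, a cytokine receptor chain, log2 -0.52, adjusted p = 0.0167) and none passed at ZT18. None of 11 metabolic targets passed at either time. Of 15 genes for signals that induce Cebpb or Cebpd, 1 was lower at ZT12 (Rela, an NF-κB subunit, log2 -0.51, adjusted p = 0.0179) and none passed at ZT18. Of 13 genes acting on C/EBP turnover or dimers and 14 ATF4 targets, 1 and 2 passed at ZT12 and none and 1 at ZT18, all of them Ddit3 or Atf3. Without the 7 libraries of low share none of the genes in these 5 groups passed at ZT12, where almost none of all genes tested did. Of 19 clock genes, 1 was higher and 3 lower in KO at ZT12, where 5% of all genes passed, and 2 were higher and 1 lower at ZT18, where 2.14% passed. Those at ZT12 were Clock (log2 0.40), Dbp (-1.06) and the REV-ERB repressor genes Nr1d1 (-0.81) and Nr1d2 (-0.50). Those at ZT18 were Nfil3 (1.10), the repressor gene Bhlhe41 (0.97) and Per3, a clock repressor gene (-0.84, adjusted p = 0.0127). Clock, Nr1d1, Nr1d2 and Bhlhe41 are named after their values were seen. Counts of the clock list without the 7 libraries of low share are not given here. Almost none of all genes tested passed at ZT12 without those libraries.

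Between ZT0 and ZT6, several of these groups were called together with Cebpa and Cebpb. Of the inflammatory targets, 6 of 17 were higher at ZT6 in KO (median log2 0.89) and 4 of 17 in WT libraries (median 1.24), with none lower. Ccl3 differed by 1.49 in KO (adjusted p = 0.000693) and by 1.93 in WT (adjusted p = 5.08e-05). Of the partners, 5 of 10 were higher in KO and 3 of 10 in WT, led by Atf3 (log2 2.49 in KO, adjusted p = 5.33e-05, and 2.64 in WT, adjusted p = 2.31e-05). Id2, which encodes an inhibitor of DNA binding that pairs with helix-loop-helix factors, differed by 1.39 in KO (adjusted p = 9.55e-05) and 1.78 in WT (adjusted p = 1.91e-05). Among the metabolic targets Mt1, a metallothionein, differed by 0.99 in KO (adjusted p = 0.00224) and 1.15 in WT (adjusted p = 0.000878).

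Myeloid targets were called between these times in KO alone, 8 of 13 against 0 of 13 in WT libraries, though the difference between genotypes was not tested. They included Csf3r, a granulocyte growth factor receptor (log2 1.12, adjusted p = 0.00193), and Spi1, the myeloid factor PU.1 (log2 0.70, adjusted p = 0.0206). Microglia markers behaved alike, with 14 of 20 higher at ZT6 in KO (median 0.80) and 0 of 20 in WT libraries (median 0.15). In WT libraries the Cebpb difference of 1.91 thus stood beside a microglia marker median of 0.15, and in KO libraries that of 1.31 beside 0.80. Neuron markers went the other way, with 7 of 10 lower at ZT6 in KO (median -0.85) and 1 of 10 in WT libraries (median -0.90). Every red blood cell marker also had a negative estimate in both genotypes, as in Slc4a1 (log2 -0.90 in KO and -1.12 in WT), with none passing. Group means of all astrocyte markers were lower at ZT6 too, as in Aqp4 (80.1 to 62.5 CPM in KO and 96.1 to 51.8 CPM in WT). The part of these markers in the results was not tested. Background shares here were 10.2% in KO and 2.58% in WT. Without the 7 libraries of low ribosomal RNA share these ZT6 over ZT0 counts were 5 and 4 of 17 for inflammatory targets, 4 and 3 of 10 for partners and 6 and 0 of 13 for myeloid targets, in KO and WT libraries, and microglia markers had 6 and 0 of 20.

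Immediate early genes, which are induced within minutes of stimulation or cell handling, passed in part between genotypes. Of 21 such genes, 9 were lower in KO at ZT12 and none higher (median log2 -0.90, all 21 estimates negative), where 5% of all genes passed. At ZT18, where 2.14% of all genes passed, 7 were higher and none lower (median 0.70). Of the 21 estimates at ZT18, 16 were positive and 5 negative, among the negative ones Egr1 (-0.54, adjusted p = 0.38) and Fos (-0.27, adjusted p = 0.694), which are named after their values were seen. At ZT6 over ZT0, 18 of 21 were higher in KO, where 10.2% of all genes passed, and 10 of 21 in WT libraries, where 2.58% did. Without the 7 libraries of low share none passed between genotypes at ZT12, where almost none of all genes tested did. The medians were then -0.26 at ZT12 and 0.39 at ZT18, the latter on 1 KO library. With low ribosomal RNA share as a term in the model, none of the 21 passed at ZT12 or ZT18 (medians -0.573 and 0.256). Few of all genes tested passed at ZT18 in that fit.

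Across the 38 libraries, Cebpa rose with the mean log2 CPM of the immediate early genes (Pearson's r = 0.881, Spearman's rho = 0.896, adjusted permutation p = 2e-05 each) and with that of the microglia markers (r = 0.76, rho = 0.709, adjusted permutation p = 2e-05 each). The unadjusted value of 1e-05 behind these is the smallest that the permutations can give, and adjustment was over 8 relations, those of Cebpb included. Libraries were permuted across all groups, so these p-values also take in differences between groups. No p was computed for the relation within groups. The r for immediate early genes was 0.876 without the 2 libraries farthest from the median, 0.821 centred within groups, 0.908 in the 31 libraries of higher ribosomal RNA share and 0.361 in the 7 of low share. For microglia markers these were 0.681, 0.819, 0.753 and 0.585. Cebpb, given without p because of how it was chosen, had an r of 0.801 with immediate early genes (0.786, 0.664, 0.843 and -0.309) and of 0.476 with microglia markers (0.42, 0.414, 0.43 and 0.301).

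Cebpd followed the microglia markers (r = 0.752, rho = 0.782, adjusted permutation p = 2e-05 each) and not detectably the immediate early genes (r = 0.319, adjusted permutation p = 0.0597, rho = 0.251, adjusted permutation p = 0.145). Its r with microglia markers was 0.722 without the 2 farthest libraries, 0.811 centred within groups, 0.721 in the 31 libraries and 0.933 in the 7. Cebpg had an r of 0.482 with microglia markers (rho = 0.483, adjusted permutation p = 0.00343 and 0.00379), which was 0.419, 0.525, 0.506 and 0.36 in those subsets. With immediate early genes Cebpg had an r of -0.03 (rho = 0.0124, adjusted permutation p = 0.865 and 0.943).

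**Figure D4:**
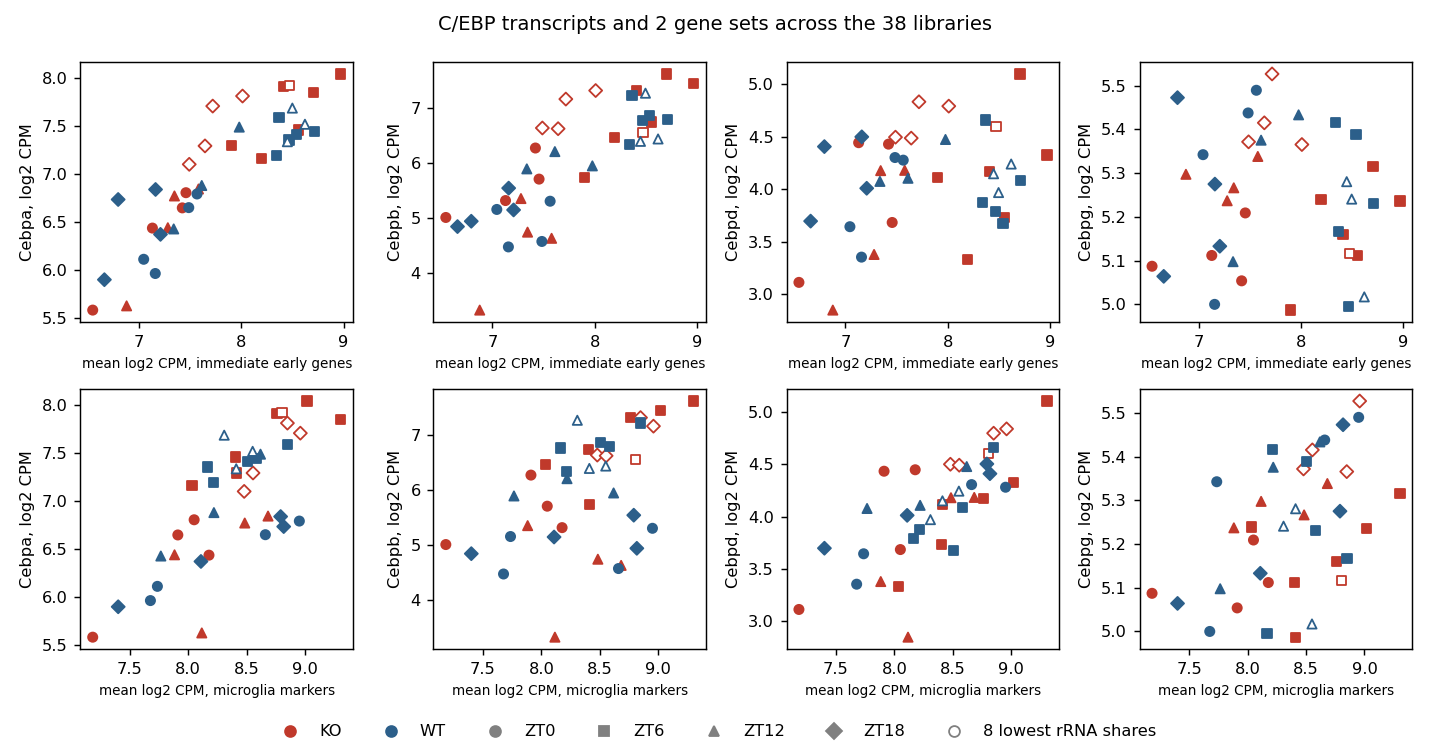
Log2 CPM of each C/EBP gene (vertical axes) against the mean log2 CPM of 21 immediate early genes (top row) and of 20 microglia markers (bottom row). Each point is a library, with colour for genotype, shape for zeitgeber time and open symbols for the 8 libraries of lowest ribosomal RNA share. Cebpa and Cebpb climb with the immediate early genes (r = 0.881 and 0.801), and Cebpa and Cebpd with the microglia markers (r = 0.76 and 0.752).

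The genes whose levels ran most like each member were taken from 12568 protein-coding genes by Pearson's r. Over the 38 libraries Cebpa was most like Junb, a subunit of AP-1 (r = 0.948), Irf2bp2 (0.948), Socs3 (0.944), Arf6 (0.943) and Efhd2 (0.937). Cebpb was most like Sertad1 (r = 0.922), Atf4 (0.906), Irf2bp2 (0.903), Mapkapk2, a stress kinase (0.899), and the phosphatase gene Dusp2 (0.895). Cebpd was most like Oaf (r = 0.89), Cd81 (0.889), Twf2 (0.878), Pck2 (0.869) and Cib1 (0.867). Cebpg had no close match, Mylip (r = 0.634), Mtmr6 (0.629), Sort1 (0.597), Abi3 (0.596) and Slc26a2 (0.595) being the nearest.

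Over the 8 group means, the genes most like Cebpa were Slc3a2, a chain of amino acid transporters (r = 0.99), Stk24, Socs3, Gaa and Cdt1. For Cebpb they were Pabpc4 (r = 0.99), Hnrnpl, Pi4k2a, Mtx1 and Tle3, for Cebpd Ppp1r18 (r = 0.986), Cdipt, Ltbr, Lrrc8a and Wbp1l, and for Cebpg Dus1l (r = 0.913), Notch4, Ubxn11, Thsd1 and Ccdc57. With 8 points and 12568 candidates such values are easily reached. By Spearman's rho, 0, 1, 0 and 3 of these 5 genes remained among the 5 listed first for Cebpa, Cebpb, Cebpd and Cebpg, where for Cebpa, Cebpb and Cebpd all 5 listed were tied at a rho of 1.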

How the data were processed

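The deposited table holds raw read counts per gene, which the authors made by use of featureCounts 1.5.0-p3, HISAT2 2.0.5 and fastp with the GRCm38 (mm10) build, per the submitters' processing notes; the annotation release and the strand setting are not stated there. One edgeR 4.0.16 quasi-likelihood model (R 4.3.3, TMM scaling, filterByExpr by group, 1 mean per group, Benjamini-Hochberg adjustment) was fitted to 38 libraries and 22798 genes, which held 99.95% of counts, and checked on simulated data with 200 changed genes. log2 CPM used a prior count of 1. Libraries were grouped by the labels' genotype and time. Replicates of a group differed beyond sampling noise. Alternatives were RLE scaling, library size alone, no filter, DESeq2 1.42.0, limma-voom (limma 3.58.1), the replicate block, 2 exclusions of libraries of low ribosomal RNA share, that class as a term, Y-linked RNA as a covariate, and leaving out each library. Correlations used 1e+05 permutations (scipy 1.17.1). The members and lists were chosen with earlier results of these data known, and the motifs after the sequences were seen. Genes were named from each list by smallest adjusted p, up to 4, and for likeness the 5 of highest r. A planned identity of member proteins was not computed.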

Additional observations from a re-analysis of the deposited data

Results flagged for a closer look

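Cebpb stood at 155 CPM in WT ZT12 replicate 4, apart from the other 5 WT libraries at that time, whose values reached up to 86.7 CPM. The gap to the nearest library was 0.713 of the group's range, above the critical value of 0.625 for 6 samples. Such a gap arises by chance in about 1 in 20 groups, and 32 groups were examined. The levels of Cebpb at ZT12 entered its choice, so that rate need not hold here and the gap is a description. This library was among the 7 of low ribosomal RNA share, and the value of Cebpb, KO minus WT at ZT12, was -1.52 on the log2 scale without it.

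The KO minus WT difference of Cebpa depended on time (adjusted p = 0.0068 by edgeR's quasi-likelihood test), lower in KO at ZT12 and higher at ZT18, and it did not pass without the libraries of low ribosomal RNA share.

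For Cebpb the KO minus WT log2 difference was -1.77 at ZT12 and 1.83 at ZT18, with every KO library below the WT libraries at ZT12 and above them at ZT18. The difference between the 2 times was not tested, since the gene was chosen for it.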

How the results depend on the processing

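Of 366 values for the 4 genes under the alternatives other than leaving out 1 library, 347 kept direction and side of the threshold, as did 1369 of 1406 on leaving out 1 library. Cebpa at ZT12 (log2 -0.79) missed the threshold with RLE scaling (-0.76, adjusted p = 0.0542), library size alone (-0.74, adjusted p = 0.0516), Y-linked RNA as a covariate (-0.77, adjusted p = 0.0861), without the 7 libraries of low ribosomal RNA share (-0.51), without the 8 lowest (-0.50) and with that class as a term (-0.57), and ranged over -0.92 to -0.58 on leaving out 1 library. Cebpa at ZT18 (1.00) missed it without the 7 (0.79), with the class term (0.70) and with Y-linked RNA (0.98, adjusted p = 0.0673), and ranged over 0.84 to 1.13; its calls were lost without WT ZT18 replicates 2, 3 or 4 or any KO ZT18 library. Its dependence on time had an adjusted p of 0.49, 0.527 and 0.269 without the 7, without the 8 and with the class term (0.00274 to 0.0297 on leaving out 1). Cebpb at ZT18 moved to 1.48 without the 7, and its average over times reversed to -0.14 without the 8, which leave no KO library and no value at ZT18; it ranged over -2.08 to -1.49 at ZT12, 1.68 to 1.99 at ZT18, and 1.15 to 1.59 for ZT6 over ZT0 in KO. Cebpa ZT6 over ZT0 in WT ranged over 0.86 to 1.13. Cebpd time of day in KO passed with no filter (adjusted p = 0.0491) and limma-voom (0.0494), and Cebpg with library size alone (0.033) and without WT ZT0 replicate 1 (0.0482 to 0.211 on leaving out 1). The mean of Cebpg in KO libraries at ZT12 was 40.2 CPM with library size alone; the other 63 of 64 group means, and all 8 relations without the 7, were kept.

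The replicate numbers were not taken to pair the libraries. Of 17 same-numbered KO and WT pairs, 2 had deviations correlated above 0.1 (-0.082 to 0.216 over all pairs). Whether the numbers mark a shared batch was not tested. With the replicate block, Cebpa at ZT12 was -0.81 (adjusted p = 0.0631), Cebpd time of day in KO had an adjusted p of 0.0246, and 467 genes were called at ZT0, 726 at ZT12 and 996 at ZT18.

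Counts of genes called between KO and WT were 65 at ZT0 (DESeq2 932, class term 110, Y-linked RNA 15, without the 7 or the 8 4, leaving out 1 library 1 to 2208), 3 at ZT6 (1 without the 7 or the 8, 2 to 5), 1139 at ZT12 (class term 203, without the 7 or the 8 1, 259 to 1357), 488 at ZT18 (DESeq2 1211, limma-voom 746, Y-linked RNA 207, class term 6, without the 7 1, 44 to 761) and 21 over all times (DESeq2 232, without the 7 7, without the 8 5, 10 to 633). The dependence on time called 2096 genes (class term 220, without the 7 or the 8 0, 1049 to 3175). At an unadjusted p under 0.05 it had 5633 in all libraries. Time of day called 1120 in WT (DESeq2 1766, without the 7 698, without the 8 724, 661 to 1449) and 5001 in KO (class term 3016, without the 7 1468, without the 8 2050), and ZT6 over ZT0 in KO called 2316 (without the 7 1503, 611 to 2624). Of calls between KO and WT at ZT12, 26.2% were higher in KO with TMM, 34.7% with RLE and 42.3% with library size alone, at ZT18 65.2%, 50.3% and 43.3%, and at ZT0 64.6%, 41.3% and 49.4%; for ZT6 over ZT0 TMM and library size alone gave 64.5% and 39.8% in KO and 85.4% and 62.2% in WT. Library size alone shifted the median of all genes for ZT6 over ZT0 in WT to -0.12. With Y-linked RNA as a covariate, 57 of 69 calls for named genes were kept. Of 69 calls for named genes, 44 were kept without the 7 and 49 with the class term.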
